A study of Mus musculus with 4 samples.

Results

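The genes described here are 4 Krüppel-like factors (Klf2, Klf4, Klf6 and Klf13), the forkhead factor Foxo1, 3 receptors for sphingosine-1-phosphate (S1pr1, S1pr2 and S1pr4) and the oxysterol receptor Gpr183. They were taken by symbol from the deposited count files, where all 9 were found among 54752 listed genes. The rule itself uses no measured values, although the genes were chosen with earlier results of these data known. The counts came from naïve CD4+ T cells that had been isolated from mouse spleen, activated with plate-bound anti-CD3 and with anti-CD28, and held for 3 days with IL-6 while IL-2, IL-4, IFN-γ and TGF-β were blocked by antibodies, a mix that favours T follicular helper (Tfh) cells. Viable cells were then sorted for RNA, and 2 libraries were made per genotype. The WT group came from littermate controls. The Mek1/2-tKO group carried floxed Map2k1 and Map2k2, which encode the kinases MEK1 and MEK2, together with Cd4-Cre, a transgene that is active in the T lineage from the thymus onward, so that B cells of these mice keep both genes. The ages and sexes of these mice, whether the controls carried the Cre and whether each library stood for 1 mouse or a pool are not given in the sources used here, so the p-values measure the spread between libraries, which may be technical.

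These genes steer where a lymphocyte goes and whether it rests. In a resting T cell FOXO1 is in the nucleus and activates Klf2, and KLF2 in turn activates S1pr1, which lets the cell leave lymphoid organs. Antigen receptor signals, through PI3K and AKT, push FOXO1 out of the nucleus and shut this programme down, and the surface protein CD69 removes S1PR1 from the membrane. Tfh cells are known for low KLF2 and S1PR1, for the use of S1PR2 to stay in the follicle and for GPR183 at the edge of the T and B cell zones. The comparison of the genotypes asks how these genes stood after activation without MEK1 and MEK2.

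The libraries held 16330802 to 18931090 counts. A count of 0 in the smallest of them allows up to 0.194 CPM (counts scaled to library size), which covers counting error only. Map2k1, read first as a check of the labels, had 182 and 187 CPM in WT and 98.0 and 105 CPM in Mek1/2-tKO, and Map2k2 had 155 and 165 CPM against 172 and 182 CPM. Only Map2k1 was called lower, where a called gene had to pass 0.05 in Benjamini-Hochberg adjusted p (edgeR's quasi-likelihood test) and to differ by 1.5-fold or more. Counts over whole genes do not show whether the floxed exons were lost. Markers of other cell types were checked next, since several of them also use KLF2 and S1PR1 at rest. In sum, 12 B-lineage markers reached 1731 and 1696 CPM in WT against 8720 and 8569 CPM in Mek1/2-tKO, with 11 of the 12 called higher, 1 called lower and none at 0 in any library. For 10 T-cell markers the sum was 2184 and 2170 CPM in WT against 1481 and 1323 CPM in Mek1/2-tKO, 6 of them being called lower and none higher, where Cd4 itself stood at 18.8 and 25.1 CPM against 297 and 289 CPM in WT. All 8 NK-cell markers (100 and 96.6 CPM in sum in WT, 651 and 602 CPM in Mek1/2-tKO), both CD8 genes (67.4 and 59.3 against 238 and 214 CPM) and all 5 gamma-delta T-cell genes (6.98 and 4.36 against 184 and 165 CPM) were called higher. Of 10 myeloid markers, 7 were tested and all 7 were called higher, at sums of 2.05 and 2.90 CPM in WT and 28.6 and 20.1 CPM in Mek1/2-tKO, with S100a8 and Adgre1 at 0 in both WT libraries. The libraries labelled as Mek1/2-tKO CD4+ T cells thus held little Cd4 RNA, and B-lineage RNA was present in all 4 libraries. The part of these other cells in the values below was not tested.

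**Figure D1:**
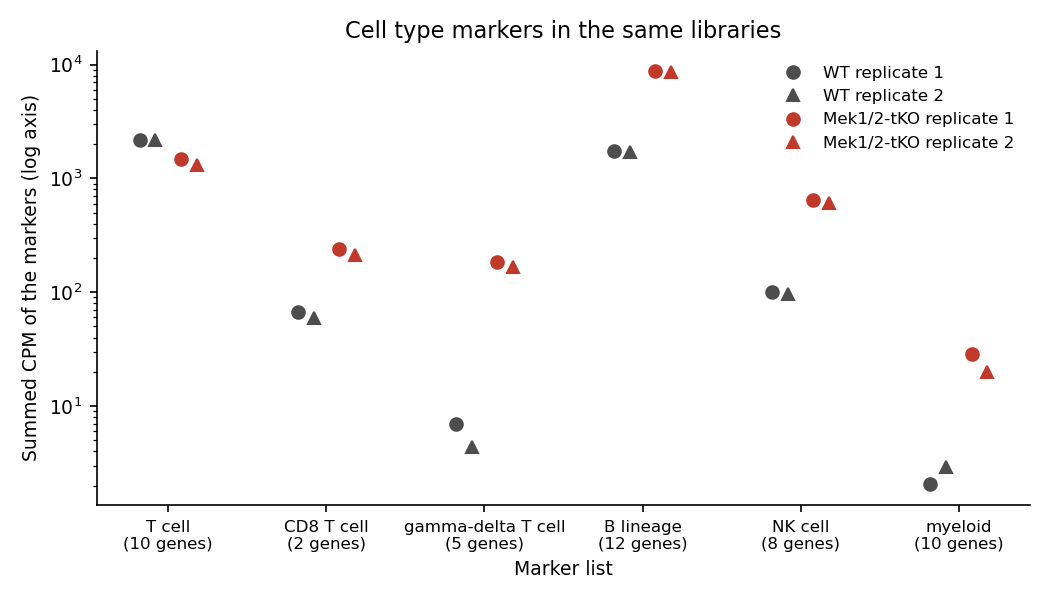
Summed CPM of 6 marker lists (log axis) in each of the 4 libraries, with grey symbols for WT, red symbols for Mek1/2-tKO, circles for replicate 1 and triangles for replicate 2. The B-lineage sum was 1696 to 1731 CPM in WT and 8569 to 8720 CPM in Mek1/2-tKO, while the T-cell sum was lower in both Mek1/2-tKO libraries.

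Klf2 was among the genes that differed most between the genotypes. Of the 14330 genes that had enough counts to be tested, 19.3% were called higher and 16.4% lower in Mek1/2-tKO. Scaling by library size alone turned this balance, with 2388 genes higher and 2848 lower against 2768 and 2355. All 9 genes were tested, of which 4 (Klf2, S1pr1, S1pr4 and Gpr183) were called higher and 2 (Klf4 and S1pr2) lower. Klf6, Klf13 and Foxo1 had an adjusted p under 0.05 with a fold change under 1.5, as did many others, since 55.0% of all tested genes passed that p in one direction or the other. The libraries of the genotypes did not overlap for any of the 9: Mek1/2-tKO was above WT for 4 and below it for 5. This too was common, at 39.5% of all tested genes for higher, 38.8% for lower and 78.3% in all. The RNA was from bulk samples. A change in the number or kind of cells that express a gene cannot be told apart from a change in its RNA per cell. The median log2 fold change was -0.44 over the 9 genes and 0.02 over all tested genes.

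**Figure D2:**
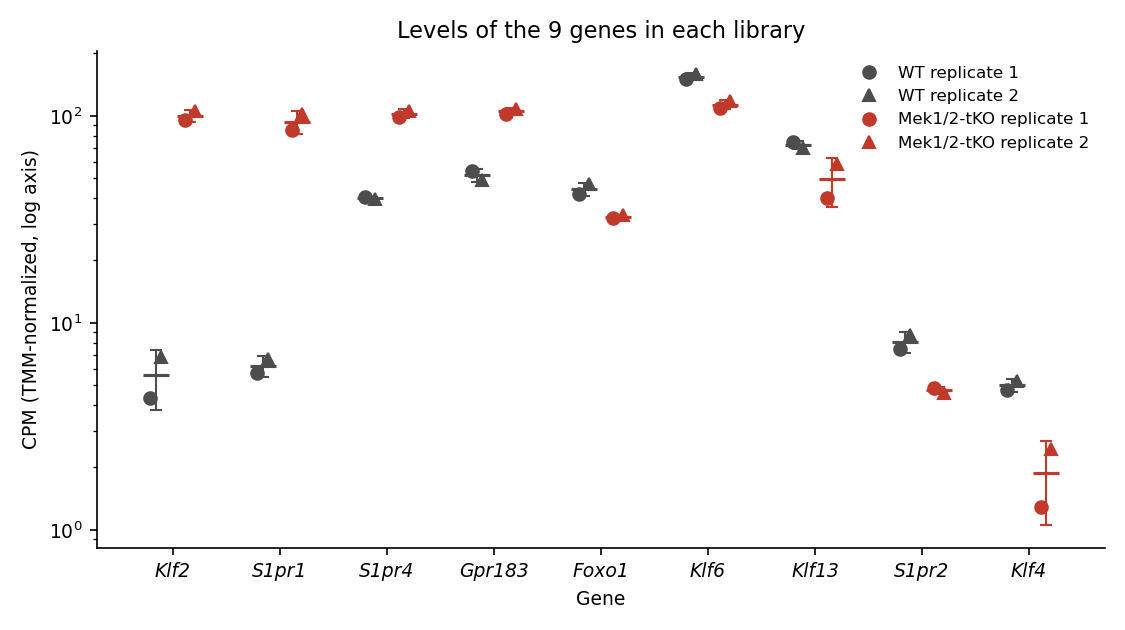
CPM of the 9 genes (log axis) in each of the 4 libraries, with grey symbols for WT, red symbols for Mek1/2-tKO, horizontal bars for the mean of each genotype and error bars for the SD (n = 2). Klf2, S1pr1, S1pr4 and Gpr183 stood between 85.4 and 108 CPM in the Mek1/2-tKO libraries, although Klf2 and S1pr1 were at 4.31 to 6.85 CPM in WT.

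Klf2 (ENSMUSG00000055148.7, chromosome 8, 72319033 to 72321656, GRCm38) encodes the zinc-finger factor that holds T cells in quiescence and keeps their trafficking receptors expressed. Its counts were 84 and 132 in WT against 1473 and 1969 in Mek1/2-tKO, or 4.31 and 6.85 CPM against 95.1 and 105 CPM. Both Mek1/2-tKO libraries were thus far above both WT libraries, and the WT pair differed between themselves more than the Mek1/2-tKO pair did in proportion. Klf2 rose by 4.16 on the log2 scale (standard error, SE, 0.17, adjusted p = 2.22e-10 in edgeR), a fold change of 17.9 with a 95% interval of 14.0 to 23.0. This was the 144th highest log2 fold change of the 14330 tested. Leaving out single libraries gave values between 3.86 and 4.53.

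Klf4 (ENSMUSG00000003032.8, chromosome 4, 55527143 to 55532466), a relative of Klf2 that restrains the division of resting T cells, was lower in Mek1/2-tKO. It had 92 and 101 counts in WT and 20 and 46 counts in Mek1/2-tKO, or 4.72 and 5.24 CPM against 1.29 and 2.45 CPM. Both Mek1/2-tKO libraries were below both WT libraries, and the Mek1/2-tKO pair was further apart than the WT pair. Klf4 fell by 1.39 on the log2 scale (SE 0.36, adjusted p = 0.00484 in edgeR). Its size was -1.95 when Mek1/2-tKO replicate 2 was dropped and -1.02 when replicate 1 was, and the gene was called with any one of the 4 libraries dropped.

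Klf6 (ENSMUSG00000000078.7, chromosome 13, 5861482 to 5870394), a widely expressed factor that responds to activation, had 150 and 159 CPM in WT and 109 and 117 CPM in Mek1/2-tKO. Its log2 fold change of -0.45 (95% interval -0.63 to -0.27, adjusted p = 4.82e-04 in edgeR) was larger than the spread between libraries, and 1.5-fold was reached under no other scaling, filter or left-out library. Klf13 (ENSMUSG00000052040.10, chromosome 7, 63886351 to 63938915), known in T cells as an activator of the chemokine gene Ccl5, had 74.6 and 70.1 CPM in WT and 40.1 and 58.4 CPM in Mek1/2-tKO. The Mek1/2-tKO libraries differed strongly from each other here, and the log2 fold change of -0.55 (SE 0.14, adjusted p = 0.00481 in edgeR) was -0.86 without Mek1/2-tKO replicate 2 and -0.31 without Mek1/2-tKO replicate 1. It passed both thresholds in the first of these fits, without WT replicate 2 (-0.60) and with scaling by library size alone (-0.63).

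Foxo1 (ENSMUSG00000044167.6, chromosome 3, 52268336 to 52353221), which encodes the factor above Klf2 in resting T cells, did not follow it. Foxo1 had 42.0 and 46.6 CPM in WT and 32.0 and 33.1 CPM in Mek1/2-tKO, so that both Mek1/2-tKO libraries were below both WT libraries. The log2 fold change of -0.44 (SE 0.11, 95% interval -0.69 to -0.20, adjusted p = 0.00456 in edgeR) passed the p and not the fold change threshold, and 1.5-fold was reached under no other scaling, filter or left-out library. Without WT replicate 2 it was -0.37 with an adjusted p of 0.078 (edgeR). Of the exon bases of Foxo1, 7.78% overlap Gm20402 on the other strand, and the strand setting of the counting is not given in the sources used here, while the exons of the other 8 genes overlap no other gene. FOXO1 is controlled mainly by phosphorylation and export from the nucleus, which RNA counts do not measure.

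Of the 4 receptors, 3 were called higher and 1 lower. S1pr1 (ENSMUSG00000045092.8, chromosome 3, 115710433 to 115715072), the receptor that draws lymphocytes out toward blood and lymph, had 111 and 129 counts in WT and 1322 and 1912 counts in Mek1/2-tKO. In CPM this was 5.70 and 6.69 against 85.4 and 102, again with both Mek1/2-tKO libraries far above WT. It rose by 3.92 on the log2 scale (SE 0.14, adjusted p = 1.02e-10 in edgeR), a fold change of 15.1 with a 95% interval of 12.2 to 18.7, and leaving out each library gave 3.78 to 4.04. S1pr1 is a known target of KLF2.

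S1pr4 (ENSMUSG00000044199.6, chromosome 10, 81497747 to 81500132), a receptor largely restricted to blood cells, had 40.4 and 39.8 CPM in WT and 98.8 and 106 CPM in Mek1/2-tKO. It rose by 1.35 on the log2 scale (SE 0.10, adjusted p = 7.78e-08 in edgeR), a fold change of 2.55. Gpr183 (ENSMUSG00000051212.8, chromosome 14, 121952551 to 121965195), also called EBI2, guides activated T and B cells along oxysterol gradients to the follicle border. It had 54.2 and 49.0 CPM in WT and 102 and 108 CPM in Mek1/2-tKO, and rose by 1.02 on the log2 scale (SE 0.10, adjusted p = 1.20e-06 in edgeR), a fold change of 2.03. Both receptors were called higher under every scaling, filter and test tried and with any library left out.

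S1pr2 (ENSMUSG00000043895.6, chromosome 9, 20962361 to 20976781), which couples to Gα13, opposes migration and keeps germinal centre B cells and Tfh cells in the follicle, went the other way. It had 145 and 168 counts in WT and 75 and 86 counts in Mek1/2-tKO, or 7.44 and 8.71 CPM against 4.84 and 4.58 CPM. The libraries of each genotype lay close together, and S1pr2 fell by 0.78 on the log2 scale (SE 0.24, 95% interval -1.29 to -0.27, adjusted p = 0.0129 in edgeR). Without WT replicate 2 the log2 fold change was -0.66 with an adjusted p of 0.10 in edgeR, so that the call rests on that library.

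**Figure D3:**
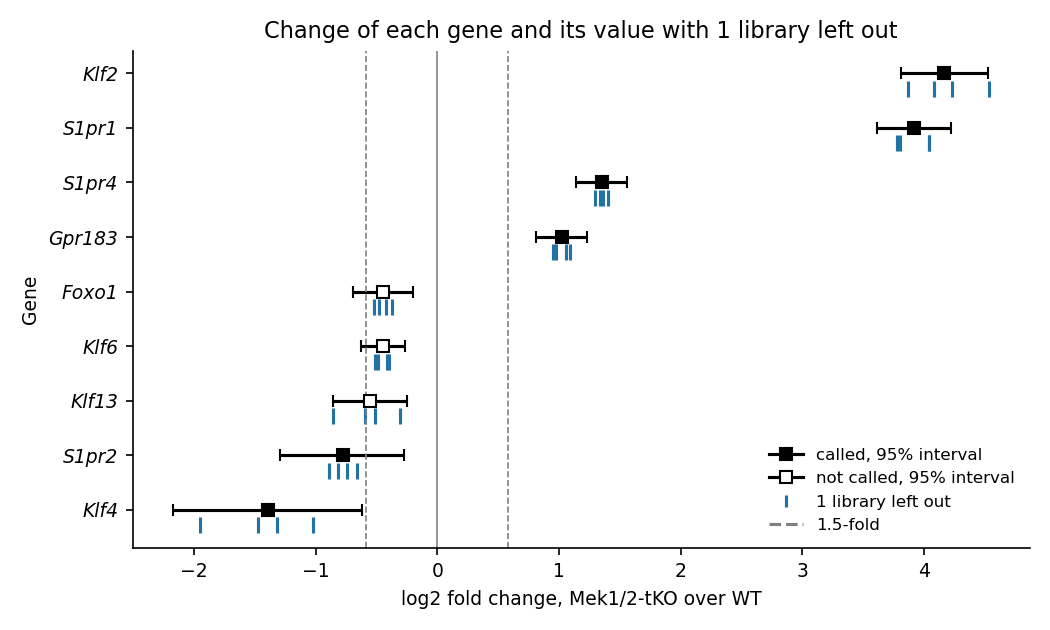
Log2 fold change of Mek1/2-tKO over WT for each of the 9 genes (squares, filled where called, with 95% intervals from edgeR's quasi-likelihood fit), with the values after leaving out each library as blue ticks and the 1.5-fold thresholds as dashed lines. Klf2 (4.16) and S1pr1 (3.92) stand apart from S1pr4 (1.35) and Gpr183 (1.02), and the ticks of Klf13 lie on both sides of the threshold.

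Levels were compared between genes as RPKM, the CPM divided by the exon length in kilobases. In WT the order was Klf6 (35.2 RPKM), Gpr183 (17.9), S1pr4 (16.8), Klf13 (9.61), Foxo1 (5.12), Klf2 (3.02), S1pr1 (2.03), Klf4 (1.63) and S1pr2 (1.01 RPKM). In Mek1/2-tKO it was Klf2 (54.1 RPKM), S1pr4 (42.9), Gpr183 (36.3), S1pr1 (30.7), Klf6 (25.8), Klf13 (6.54), Foxo1 (3.76), Klf4 (0.614) and S1pr2 (0.591 RPKM). Klf2 thus moved from the sixth place to the first and S1pr1 from the seventh to the fourth. The libraries of neighbouring genes did not overlap in either order, except for Klf4 and S1pr2 in Mek1/2-tKO, although Gpr183 and S1pr4 were nearly level in WT, at 18.8 and 17.0 RPKM against 16.9 and 16.7 RPKM.

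Per length, the make-up of both gene families differed between the genotypes. Klf2 made up 2.88 and 4.30% of the summed RPKM of the 17 numbered Klf genes in the WT libraries and 47.2 and 46.4% in the Mek1/2-tKO libraries, while Klf6 made up 42.2 and 41.9% and then 22.8 and 21.8%. The sum itself was 81.1 and 86.2 RPKM in WT and 109 and 122 RPKM in Mek1/2-tKO. Among the 5 S1P receptors, S1pr4 held 82.0 and 80.7% of the summed RPKM in WT and 58.5 and 56.1% in Mek1/2-tKO, and S1pr1 held 9.05 and 10.6% and then 39.6 and 42.3%. The ratio of S1pr1 to S1pr2, the receptor for leaving against the receptor for staying, was 2.00 and 2.01 in WT and 46.1 and 58.2 in Mek1/2-tKO on this scale. These shares describe each library and follow from the changes above.

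The promoters of the 3 higher genes that have an entry in the RefSeq table used here, and that of Klf4 for contrast with Klf2, are shown because these genes moved with or against Klf2. Each is the 250 bases before the RefSeq transcript start (GRCm38.p6), read 5′ to 3′ on the strand of the gene, and capitals mark matches on either strand to 3 motifs, the forkhead core TGTTTA, the MEF2 motif (CTA, any 4 bases, TAG) and the KLF motif CCACCC.
Klf2, chr8:72318812-72319061, plus strand: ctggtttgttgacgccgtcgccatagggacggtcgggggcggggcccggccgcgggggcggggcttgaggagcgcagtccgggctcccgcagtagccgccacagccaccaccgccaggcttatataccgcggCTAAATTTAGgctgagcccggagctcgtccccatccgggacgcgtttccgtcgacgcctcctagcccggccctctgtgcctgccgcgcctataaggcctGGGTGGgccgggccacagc
S1pr4, chr10:81500138-81500387, minus strand: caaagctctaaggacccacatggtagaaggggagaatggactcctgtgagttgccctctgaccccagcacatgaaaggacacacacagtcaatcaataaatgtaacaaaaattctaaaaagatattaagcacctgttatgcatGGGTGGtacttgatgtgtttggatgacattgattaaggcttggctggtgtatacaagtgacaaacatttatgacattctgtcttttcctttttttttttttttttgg
Gpr183, chr14:121965194-121965443, minus strand: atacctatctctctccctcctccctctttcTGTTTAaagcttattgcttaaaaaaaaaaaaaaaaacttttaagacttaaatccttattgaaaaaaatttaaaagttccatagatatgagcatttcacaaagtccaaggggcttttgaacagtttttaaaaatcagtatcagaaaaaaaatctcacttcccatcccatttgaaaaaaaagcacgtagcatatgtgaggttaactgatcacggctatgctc
Klf4, chr4:55532476-55532725, minus strand: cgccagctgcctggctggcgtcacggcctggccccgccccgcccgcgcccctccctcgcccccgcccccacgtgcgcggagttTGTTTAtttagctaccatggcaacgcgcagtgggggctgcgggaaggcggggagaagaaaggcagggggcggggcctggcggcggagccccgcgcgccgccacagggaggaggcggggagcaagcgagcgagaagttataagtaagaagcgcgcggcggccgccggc

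The table held promoters of 8 of the 9 genes, all but S1pr1. The MEF2 motif, which ends 109 bases before the start of Klf2, is present in this window of 3.20% of the 32851 promoters in the table and in 1 of these 8. MEF2 factors act below the kinase ERK5 and are known activators of Klf2 in endothelial cells. The KLF motif is present in 28.1% of promoters and in 3 of the 8 (Klf2, Klf13 and S1pr4). The forkhead core is present in 12% and in 2 of the 8 (Klf4 and Gpr183), and its extension to TGTTTAC in 3.17% and in none of the 8. A match is a description of letters and not a binding site, and these windows leave out enhancers and all bases after the start.

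The MEK5-ERK5-MEF2 genes belong to a kinase cascade that runs beside MEK1 and MEK2 and leads to Klf2 in endothelial cells. Of these genes 2 were higher, 0 lower and 6 not called, with a median log2 fold change of -0.26. Across all tested genes 35.8% were called in one direction or the other. Mef2c stood at 33.6 ± 3.25 CPM in WT and at 61.5 ± 5.88 CPM in Mek1/2-tKO (mean ± SD of 2 libraries, as in the values that follow), which is 0.87 higher on the log2 scale. Mef2b, at 9.44 ± 0.217 against 14.8 ± 0.176 CPM, was 0.65 higher on that scale and fell short of the fold change threshold with scaling by library size alone. Both genes are also expressed in B cells, whose markers were higher in the same libraries. The part of B cells in these values, as in those of the 9 genes, was not tested. Map2k5 and Mapk7, which encode MEK5 and ERK5, had log2 fold changes of -0.29 (adjusted p = 0.103) and -0.23 (adjusted p = 0.254, both in edgeR).

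The genes above FOXO1, its relatives Foxo3, Foxo4 and Foxo6 and the PI3K and AKT pathway, numbered 18, of which 17 were tested, 2 were called higher and 2 lower (median log2 fold change -0.10). The share called was 23.5%, below the 35.8% of all tested genes. Pdpk1, which encodes the kinase that activates AKT and SGK1, fell by 0.88 on the log2 scale (76.3 ± 0.522 CPM in WT, 41.4 ± 4.44 CPM in Mek1/2-tKO), and Pik3cg, a catalytic PI3K subunit, by 0.62 on the log2 scale, which was -0.55 and under 1.5-fold without WT replicate 2 and -0.57 without Mek1/2-tKO replicate 2. Sgk1, which encodes a kinase that phosphorylates FOXO factors as AKT does, rose by 1.85 (3.77 ± 1.05 against 13.6 ± 1.66 CPM), and Pik3ip1, an inhibitor of PI3K that is high in resting T cells, by 1.80 (6.26 ± 1.67 against 21.9 ± 3.69 CPM). Foxo3 had a log2 fold change of -0.56, near the threshold, which it passed with scaling by library size alone (-0.64) and without WT replicate 1 (-0.60). Akt1 had -0.21 and Akt2 -0.49, neither of which reached 1.5-fold.

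Genes that depend on FOXO1 or KLF2 in resting T cells, numbered 20, all tested, of which 4 were called higher and 4 lower (median log2 fold change -0.33). The share called, 40%, was near the 35.8% of all tested genes. The antiproliferative gene Btg1 rose by 1.62 on the log2 scale (194 ± 0.942 CPM in WT, 597 ± 9.97 CPM in Mek1/2-tKO), and its relative Btg2 (1.36) and the stress sensor Sesn1 (1.16) rose as well. Lef1 (-1.77), Tcf7 (-1.31), Satb1 (-2.0) and Sesn3 (-0.79) fell, the first 3 of which encode factors of the T lineage. Satb1 went from 355 ± 7.62 to 88.8 ± 8.89 CPM. Ccr7, which brings T cells into the T zone, had a log2 fold change of -0.31, Itgb7 one of -0.48 and Bach2 one of -0.36. Il7r, a direct FOXO1 target, had -0.56, and it was called with scaling by library size alone (-0.65), without WT replicate 2 (-0.64) and without Mek1/2-tKO replicate 1 (-0.67). Of the 10 T-cell markers in the same libraries, 6 were called lower and 4 (Cd3d, Cd3g, Trbc1 and Trbc2) were not called, with log2 fold changes of 0.20, 0.24, 0.16 and -0.03.

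The S1P and oxysterol pathway was listed with 22 further genes, of which 17 were tested, 3 were called higher and 2 lower (median log2 fold change 0.15). The share called was 29.4%, below the 35.8% of all tested genes. The higher ones were all rare in WT: Spns2, an S1P exporter, had 10 and 6 counts in WT and 108 and 127 counts in Mek1/2-tKO, Sphk1, which makes S1P, 14 and 4 against 74 and 79, and Mfsd2b, an S1P exporter of blood cells, 5 and 4 against 42 and 42. Their log2 fold changes were 4.03 (SE 0.40), 3.26 (SE 0.52) and 3.37 (SE 0.62). That of Sphk1 was 4.39 when WT replicate 1 was dropped and 2.63 when WT replicate 2 was. Gna13, which encodes the Gα13 subunit through which S1PR2 signals, fell by 1.21 on the log2 scale (SE 0.09), with 187 ± 14.6 CPM in WT against 80.5 ± 2.96 CPM in Mek1/2-tKO, while Arhgef1, the exchange factor that acts after it, had -0.12. Plpp1, which degrades S1P outside the cell, fell by 1.52 (6.68 ± 0.205 against 2.34 ± 0.525 CPM). Cd69, whose product takes S1PR1 off the surface, had 115 and 106 CPM in WT and 161 and 138 CPM in Mek1/2-tKO, a log2 fold change of 0.44 (adjusted p = 0.00146 in edgeR) that was under the fold change threshold. RNA counts do not measure S1PR1 on the surface. S1pr5 had 0 counts in 3 libraries and 4 counts in Mek1/2-tKO replicate 1, Hsd3b7 and Cyp7b1 had none in any library, and Ch25h had 3 and 2 counts in WT and 0 and 4 counts in Mek1/2-tKO, so that a difference in the enzymes that make or degrade the GPR183 ligand was not detectable at this depth.

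The other 13 Klf genes had 9 tested, with 1 called higher and 3 lower (median log2 fold change -0.23). The share called was 44.4% of these 9, beside 35.8% of all tested genes. Klf1, a factor of red cell precursors, was the one called higher, from 4 and 20 counts in WT to 72 and 58 counts in Mek1/2-tKO, a log2 fold change of 2.62. Dropping WT replicate 1 gave 1.88 and dropping WT replicate 2 gave 4.18. Klf11 (-1.01), Klf9 (-0.66) and Klf7 (-0.61) were the lower ones, all below 10 CPM in every library. Klf11 was -0.53 and not called without Mek1/2-tKO replicate 2 and -1.69 without Mek1/2-tKO replicate 1. Klf9 was not called without WT replicate 1 (-0.53), without Mek1/2-tKO replicate 1 (-0.55) or with the replicate number as a block (-0.66, adjusted p = 0.055 in edgeR). Of the 4 fits that left out a library, Klf7 was called only in that without Mek1/2-tKO replicate 2 (-0.86). DESeq2 called Klf11 alone of them. Klf16, the most abundant of the others at 62.9 and 72.8 CPM in WT and 47.6 and 56.2 CPM in Mek1/2-tKO, had a log2 fold change of -0.39. Klf14, Klf15 and Klf17 had no counts.

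**Figure D4:**
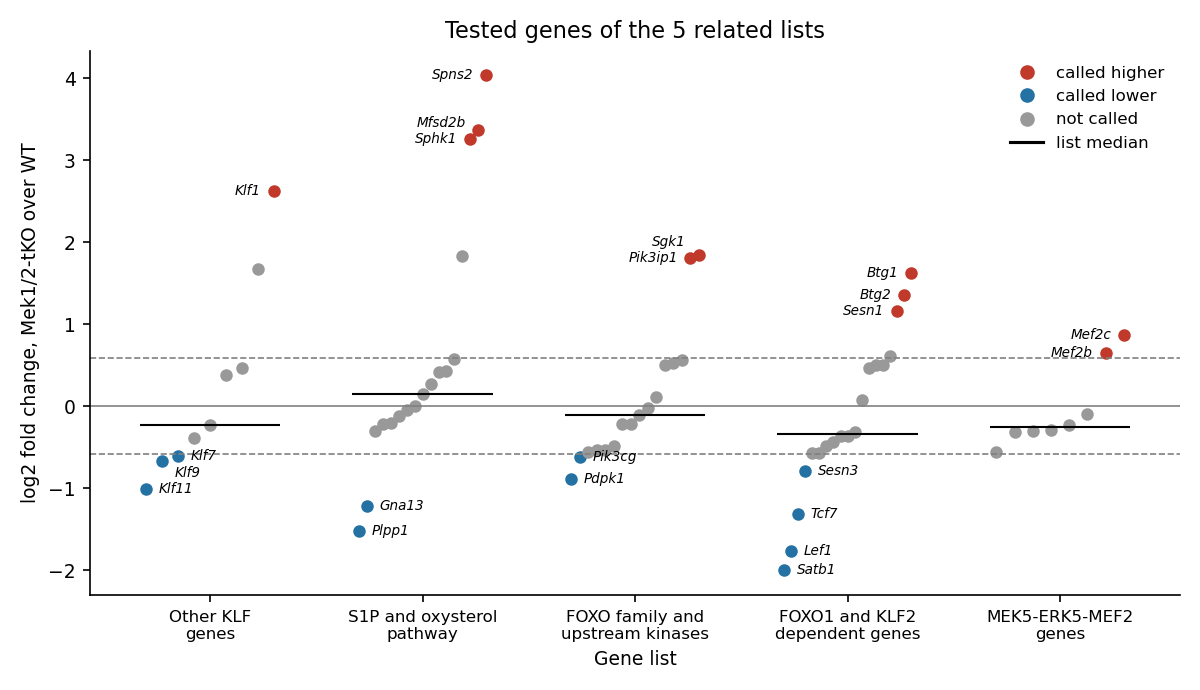
Log2 fold change of Mek1/2-tKO over WT for the tested genes of 5 related lists that are reported here, in order within each list, with called genes in red (higher) or blue (lower) and named, others in grey, list medians as black lines and the 1.5-fold thresholds as dashed lines. Called genes lie on both sides in 4 of the lists, from Satb1 at -2.0 to Spns2 at 4.03.

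The genes most like Klf2, S1pr1 and Foxo1 were found by the distance between log2 CPM profiles over the 4 libraries, each centred on its mean, with genes below an average log2 CPM of 3 left out. Nearest to Klf2 were Lgals3 (distance 0.35), Csf2 (0.37) and Rnase6 (0.40), with log2 fold changes of 4.25, 4.28 and 3.93. Nearest to S1pr1 were Rnase6 (0.30), the chemokine receptor Cxcr4 (0.31) and the complement regulator Cd55 (0.32), with log2 fold changes of 3.93, 3.61 and 3.97. Nearest to Foxo1 were Eya3 (0.02), Mafg (0.03) and Gusb (0.03), none of which reached 1.5-fold. With 4 libraries in 2 groups these distances rest mostly on the difference between the genotypes.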

How the data were processed

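The data are RNA-seq of 4 libraries, 2 per genotype, of 16330802 to 18931090 counts. Per the methods and the submitters' processing notes, the authors trimmed the reads with Trimmomatic 0.36, mapped them to GRCm38, counted uniquely mapped reads per gene with featureCounts (Subread 1.5.1) and deposited the raw counts of each library. Neither the annotation release nor the use of strand in counting is given in the sources used here. Symbols were matched to 54723 of 54752 Ensembl identifiers. From these counts, fold changes were fitted by the robust quasi-likelihood method of edgeR 4.0.16 (R 4.3.3) with TMM scaling. filterByExpr kept 14330 genes, over which p-values were adjusted by Benjamini-Hochberg. The fit was also run on simulated data, in which all genes had the same spread in both genotypes. CPM used TMM-scaled library sizes. Standard errors were taken from the fold change and the F statistic. Exact permutation of 2 against 2 libraries cannot give a two-sided p under 0.333. Replicates differed by more than sampling noise (chi-square per gene 4.07 in WT, 10.1 in Mek1/2-tKO). The genes, the 5 related lists, the marker lists and the motifs were chosen with earlier results of these data known. The rule for named genes took the 9 genes, any gene of the 5 lists (at least the called gene with the largest change in each direction), the markers, Map2k1, Map2k2 and the 3 genes nearest in profile to each of Klf2, S1pr1 and Foxo1. Alternatives were DESeq2 1.42.0, other tests, scalings, filters and thresholds, a replicate block and leaving out each library. Figures were drawn with matplotlib 3.10.9. Some genes of the lists are counted in them and are not reported here.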

Additional observations from a re-analysis of the deposited data

How the results depend on the processing

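No gene of the 9 changed direction under any alternative run. Calls changed for Klf13, at -0.63 with scaling by library size alone and -0.86 to -0.31 with a library left out, and for S1pr2, at -0.89 to -0.66 with a library left out. Without a fold change threshold 3903 genes and 5 of the 9 were lower, the higher counts were 6 for the S1P and oxysterol list, 5 for the FOXO list and 7 for the FOXO1 and KLF2 dependent genes, and the lower counts were 6, 11 and 2 for the FOXO, FOXO1 and KLF2 dependent and MEK5 lists. At 2-fold, 1725 genes were higher and 1040 lower, 1 of the 9 and 1 other Klf gene were lower, none of the FOXO list was lower (0) and none of the MEK5 list higher (0). With scaling by library size alone 4 genes of the FOXO list were lower and the MEK5 list had 1 higher and 1 lower. Other Klf genes were 2 higher by the likelihood-ratio test and 1 lower by DESeq2. Among genes with at least 10 counts in every library they were 0 higher. That filter removes Klf1, and also Spns2, Sphk1 and Mfsd2b. The 1 gene of the S1P list called higher under it was Sgpl1 (0.59), which was under 1.5-fold with filterByExpr (0.57). With a library left out, other Klf genes were 1 to 2 higher and 1 to 3 lower, the FOXO list 2 to 4 higher and 1 to 3 lower, and the MEK5 list 0 to 1 lower. The cause of these shifts was not tested.

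Whether the samples were prepared in pairs is not given in the sources used here. Deviations of same-numbered libraries correlated at -0.0262, so the counts showed no pairing by replicate number. A fit with this number as a block called 2652 genes higher and 2300 lower and changed no call among the 9. Among the genes of the 5 lists it ended the call of Klf9 alone, leaving 2 other Klf genes lower. With 2 libraries per genotype, the spread of each gene is borrowed largely from other genes, and Klf4, S1pr2 and Klf1 rest on low counts.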
